A study of Mus musculus with 24 samples.

Results

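The mouse Toll-like receptors measured here and the co-receptor CD14 are encoded by Tlr1, Tlr2, Tlr3, Tlr4, Tlr6, Tlr7, Tlr8, Tlr9, Tlr13 and Cd14, 10 genes chosen by name out of the 54532 genes in the count files. Their RNA was followed in the left gastrocnemius muscle of wild-type C57/BL6 mice in 24 libraries, 4 in each of 6 groups that combine the 2 sexes with 3 conditions. In the control groups the animals were sedentary and the gastrocnemius received saline of pH 7.2 in 2 doses of 20 µl given 5 days apart. In sedentary pain the pH was 5.0 instead, and 6 min of contraction driven by an electric stimulus came right before the later dose. In active pain the animals lived with running wheels for 8 weeks before that same acid and contraction protocol. Every sample carries a time label of 24 h, and ages are not given. Controls had neither acid nor contraction, so the parts of these cannot be told apart. Active and sedentary pain differ in running alone, but no group ran without pain, so running outside the pain model was not measured.

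Toll-like receptors are innate immune sensors that recognise microbial molecules and molecules released by damaged cells. TLR1, TLR2, TLR4 and TLR6 sit in the cell membrane and respond mainly to lipopeptides and lipopolysaccharide, and CD14 is a membrane-anchored or soluble protein that hands such ligands to them. TLR3, TLR7, TLR8, TLR9 and TLR13 sit in endosomes and respond to nucleic acids. Most of the receptors signal through the adaptor MyD88, TLR3 through TRIF and TLR4 through both, to NF-kB and interferon regulatory factors. Leukocytes such as macrophages express many of these genes, which is why markers of those cells are given beside the results. Which cells expressed them in this muscle was not measured.

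Promoter sequences, 250 bases before to 50 after the annotated start, were taken from RefSeq (GRCm38.p6), where 7 of the 10 genes had an entry. They were searched on both strands for 3 patterns, GAGGAAG as a core bound by the myeloid factor PU.1, GGG with 2 bases of any kind and TTTCC as a core of NF-kB sites, and GAAA with 2 bases of any kind and GAAA as a core of interferon-stimulated response elements. The patterns do not overlap each other in the sequences shown. GAGGAAG was present in 3 of the 7 genes, Tlr1, Tlr9 and Tlr13, against 15.4% of 27025 genes with a promoter entry (13.6% of 32851 promoters). The NF-kB core was present in Tlr3 alone (1.89% of all genes, 1.63% of promoters). The interferon core was present in Tlr6 alone (3.99% of all genes, 3.44% of promoters), as 2 overlapping copies. Tlr1 and Tlr6 each had another promoter entry (chr5:64932650-64932949 and chr5:64959999-64960298), and neither of these held any of the 3 patterns. The sequences of the 3 genes with the PU.1 core are printed because 2 of them, Tlr13 and Tlr1, had the largest rises in female sedentary pain, and that of Tlr3 because it was the member that did not pass there. Each is printed 5′ to 3′ in the direction of transcription with the matched letters in capitals. Tlr13 (chrX:106143025-106143324, plus strand) has GAGGAAG 83 bases before the start, Tlr9 (chr9:106222348-106222647, plus strand) has it 112 bases before the start and, on the opposite strand, 12 bases after it, Tlr1 (chr5:64933509-64933808, minus strand) has it 23 bases before the start, and Tlr3 (chr8:45410331-45410630, minus strand) has the NF-kB core 211 bases before it. A match describes the letters and is not evidence of binding.
Tlr13: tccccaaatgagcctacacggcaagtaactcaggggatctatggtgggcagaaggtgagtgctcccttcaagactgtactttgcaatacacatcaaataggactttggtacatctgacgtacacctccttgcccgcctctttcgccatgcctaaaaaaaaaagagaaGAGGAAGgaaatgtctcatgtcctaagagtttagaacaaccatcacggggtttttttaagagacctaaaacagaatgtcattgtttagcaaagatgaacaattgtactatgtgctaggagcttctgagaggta
Tlr9: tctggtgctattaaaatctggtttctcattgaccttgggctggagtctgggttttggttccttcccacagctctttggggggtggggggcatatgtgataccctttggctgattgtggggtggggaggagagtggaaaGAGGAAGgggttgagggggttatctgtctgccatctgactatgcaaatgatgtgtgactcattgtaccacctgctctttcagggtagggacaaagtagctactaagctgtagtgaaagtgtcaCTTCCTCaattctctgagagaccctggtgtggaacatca
Tlr1: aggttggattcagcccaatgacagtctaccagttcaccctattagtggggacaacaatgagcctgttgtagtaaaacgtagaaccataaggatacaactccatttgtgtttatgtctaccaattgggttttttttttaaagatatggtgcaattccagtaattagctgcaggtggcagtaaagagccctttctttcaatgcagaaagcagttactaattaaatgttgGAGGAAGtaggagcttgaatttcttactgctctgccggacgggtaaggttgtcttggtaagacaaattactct
Tlr3: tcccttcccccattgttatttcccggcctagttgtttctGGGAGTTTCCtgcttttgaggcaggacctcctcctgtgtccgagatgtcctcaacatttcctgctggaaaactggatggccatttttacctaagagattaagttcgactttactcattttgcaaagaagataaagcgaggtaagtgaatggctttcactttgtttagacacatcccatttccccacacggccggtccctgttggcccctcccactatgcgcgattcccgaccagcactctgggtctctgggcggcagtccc

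The genes lie on 7 chromosomes (positions from GENCODE M21, GRCm38). Tlr1 (ENSMUSG00000044827, chromosome 5, 64924679 to 64933563) and Tlr6 (ENSMUSG00000051498, chromosome 5, 64952031 to 64960097) are neighbours with closely related sequences on the same strand. Reads shared between them may have been split in counting, so their separate values are uncertain. Tlr7 (ENSMUSG00000044583, 167304929 to 167330558), Tlr8 (ENSMUSG00000040522, 167242696 to 167264329) and Tlr13 (ENSMUSG00000033777, 106143204 to 106160493) are all on chromosome X. Tlr2 (ENSMUSG00000027995) is on chromosome 3, 83836272 to 83841767, Tlr4 (ENSMUSG00000039005) on chromosome 4, 66827584 to 66930284, Tlr9 (ENSMUSG00000045322) on chromosome 9, 106222598 to 106226883, and Cd14 (ENSMUSG00000051439) on chromosome 18, 36725067 to 36726798. Tlr3 (ENSMUSG00000031639, chromosome 8, 45395665 to 45411080) shares exonic sequence with the antisense gene Gm45542, and whether counting used strand is not given in the sources used here, so its value is uncertain too.

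Total counts per library ranged from 17612139 to 34039699, and mitochondrial genes took 2.75% to 12.6% of them. Levels are given as CPM, counts scaled to the size of the library. The labelled tissue was checked by 7 skeletal muscle genes such as Ckm and Acta1, which summed to between 88045 and 202708 CPM in every library. Levels of the members were low, from 1 to 781 counts for Tlr1, so counting error is a visible part of the spread. Some libraries stood apart. The summed CPM of 12 macrophage markers was 4295 and 6168 in replicates 3 and 4 of female sedentary pain but 517 and 765 in replicates 1 and 2, against 115 to 253 in female controls. In male sedentary pain it was 808 in replicate 1 and 168 to 556 in the others, against 78.9 to 176 in male controls. In a bulk sample, fewer or more cells of a type and less or more RNA per cell cannot be told apart.

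In controls the members were expressed at low levels, with Cd14 the highest when set per kilobase of exon. In female controls Cd14 had 1.17 ± 0.53 CPM per kb (SD, n = 4) and in male controls 0.642 ± 0.215, and in both sexes its 4 values lay above all values of the next member, Tlr4 (0.402 ± 0.147 and 0.367 ± 0.083 CPM per kb). Below Cd14 every neighbour in the order overlapped the next. The lowest female member was Tlr13 at 0.0480 ± 0.0471 CPM per kb and the lowest male member was Tlr1 at 0.0428 ± 0.0246. Between male and female controls 0 of the 10 members differed (smallest edgeR adjusted p = 0.455), where 2.83% of 15103 genes did, and 0 had an unadjusted p under 0.05 (14.9% of genes). For the X-linked receptors the male minus female log2 difference was -0.30 ± 0.59 (SE) for Tlr7, 1.24 ± 0.77 for Tlr8 and -0.12 ± 1.23 for Tlr13. The sign of 2 of them rests on single libraries: Tlr7 was 0.031 without female control replicate 3, and Tlr13 was 0.85 without female control replicate 4 and 0.029 without male control replicate 3.

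Sedentary pain in females came with higher RNA of nearly the whole receptor set. Against female controls 9 of the 10 members rose at an adjusted p under 0.05, where 19.6% of 14511 tested genes did (33.5% in either direction). The exception was Tlr3. The median log2 fold change of the 10 members was 3.74, against -0.02 over all genes. For 9 members all 4 sedentary pain libraries lay above all 4 controls, where 15.3% of all genes did. Of the 10 members, Tlr2, Tlr3, Tlr4 and Cd14 had at least 10 counts in every control library, and 3 of these 4 rose. The other 6 relied in part on the higher groups to pass the filter on low counts.

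**Figure D1:**
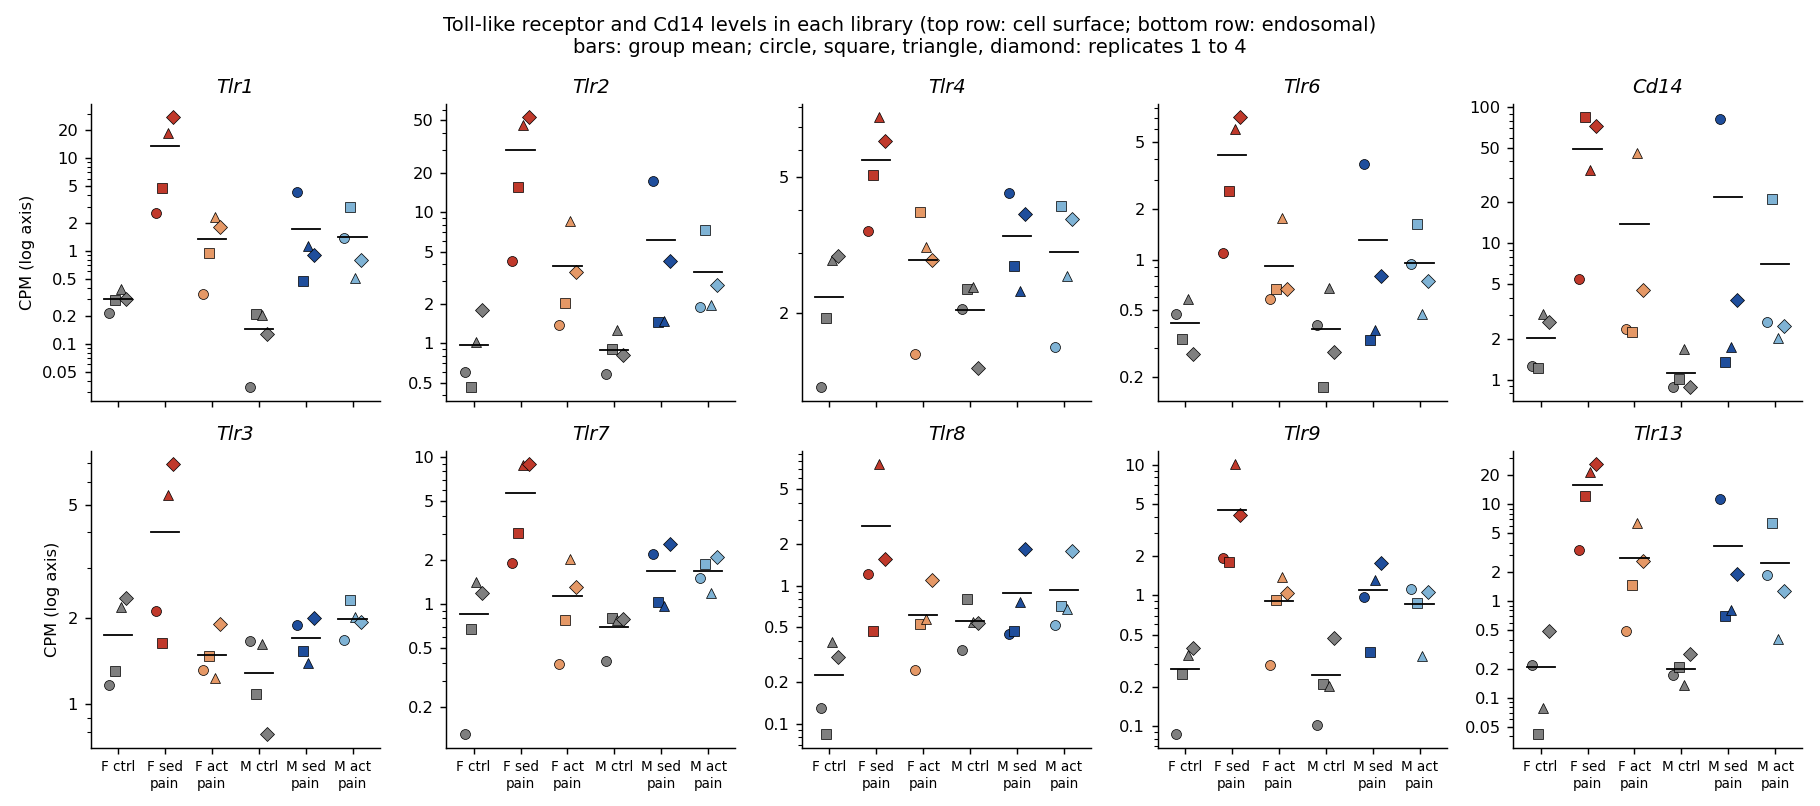
CPM on a log axis of each member in each library, with 1 panel per gene, the 6 groups on the x axis, symbols for replicates 1 to 4 and a bar at the group mean. In female sedentary pain (F sed pain) 9 of 10 members have all 4 points above the controls, while Cd14 in the other pain groups is high in 1 library each.

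Among the surface receptors, Tlr2, which pairs with TLR1 or TLR6 to bind bacterial lipopeptides, had 0.607, 0.463, 1.02 and 1.80 CPM in the female controls and 4.27, 15.6, 46.0 and 53.0 CPM in female sedentary pain, replicates 1 to 4. The groups did not overlap, and within sedentary pain the highest library was far above the lowest. The log2 fold change was 4.88 ± 0.86 (SE, edgeR adjusted p = 0.00338). Tlr1, the partner for triacylated lipopeptides, went from 0.217, 0.294, 0.391 and 0.306 CPM to 2.57, 4.73, 18.8 and 27.6 CPM, a log2 fold change of 5.43 ± 0.83 (adjusted p = 0.0026). Tlr6, the partner for diacylated lipopeptides, went from 0.477, 0.337, 0.586 and 0.275 CPM to 1.10, 2.57, 6.00 and 7.07 CPM, a log2 fold change of 3.30 ± 0.59 (adjusted p = 0.00364). In all 3 genes replicates 3 and 4 were the high libraries.

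Tlr4, the lipopolysaccharide receptor, rose least among the members past the threshold. It had 1.21, 1.94, 2.85 and 2.93 CPM in female controls and 3.48, 5.08, 7.49 and 6.39 CPM in sedentary pain, a log2 fold change of 1.30 ± 0.35 (edgeR adjusted p = 0.0187). Cd14, which delivers lipopolysaccharide to TLR4 and MD-2, reached the highest level of the set. Its values were 1.26, 1.22, 3.01 and 2.63 CPM in controls and 5.48, 84.7, 34.6 and 73.0 CPM in sedentary pain, a log2 fold change of 4.57 ± 1.13 (adjusted p = 0.0129). Unlike the receptors, Cd14 was highest in replicate 2, and all 4 of its values still lay above the controls. Per kilobase the order of sedentary pain females was Cd14 (28.5 ± 20.9 CPM per kb), Tlr2 (9.86 ± 7.80), Tlr1 (4.02 ± 3.55) and Tlr13 (3.66 ± 2.32), and Tlr4 (1.01 ± 0.31), second in the controls, came after 7 others. Every neighbour in this order overlapped the next.

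Among the endosomal receptors, Tlr13, a mouse sensor of bacterial ribosomal RNA, had the largest log2 fold change of the set in this comparison. Its values were 0.217, 0.0421, 0.0781 and 0.489 CPM in female controls (1 to 16 counts) and 3.40, 12.3, 21.4 and 25.9 CPM in sedentary pain (90 to 734 counts), a log2 fold change of 6.12 ± 0.96 (edgeR adjusted p = 0.0026). Tlr9, the receptor for unmethylated CpG DNA, went from 0.0867, 0.252, 0.352 and 0.397 CPM to 1.93, 1.81, 10.1 and 4.10 CPM (log2 fold change 3.97 ± 0.68, adjusted p = 0.00311). Tlr7, a receptor for single-stranded RNA, went from 0.130, 0.673, 1.41 and 1.19 CPM to 1.89, 3.04, 8.79 and 8.94 CPM (2.70 ± 0.69, adjusted p = 0.0151). For Tlr7 and Tlr9 no sedentary pain library fell into the control range.

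Tlr8, an endosomal receptor of the same subfamily as TLR7 and TLR9, rested in part on a single library. It had 0.130, 0.0841, 0.391 and 0.306 CPM in female controls and 1.21, 0.467, 7.59 and 1.55 CPM in sedentary pain, with replicate 3 far above the rest. The log2 fold change was 3.51 ± 0.84 (edgeR adjusted p = 0.0110), and without female sedentary pain replicate 3 it was 2.22 (adjusted p = 0.0220). Tlr3, the receptor for double-stranded RNA, had 1.17, 1.30, 2.19 and 2.35 CPM in controls and 2.12, 1.64, 5.42 and 6.92 CPM in sedentary pain, so that replicates 3 and 4 lay above the controls and replicates 1 and 2 within their range. Its log2 fold change of 1.18 ± 0.43 did not pass (adjusted p = 0.0530). It passed in 9 of 25 alternative fits, among them DESeq2 (adjusted p = 0.0238) and edgeR without female sedentary pain replicate 1 (adjusted p = 0.0195) or replicate 2 (adjusted p = 0.0226), and its adjusted p over all of them lay between 0.0172 and 0.308.

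The number in the library names separates replicates 1 and 2 (20 or lower) from replicates 3 and 4 (25 or higher), and what it stands for is not stated. Within replicates 1 and 2 alone, a split added after the data were seen, 2 of the 10 members passed in female sedentary pain against control, Tlr1 (log2 fold change 3.79, edgeR adjusted p = 0.0499) and Tlr2 (4.18, adjusted p = 0.0499), where 238 of 14274 genes did. Within replicates 3 and 4 alone all 10 passed, Tlr3 included (1.43, adjusted p = 0.0189), where 3456 of 15401 genes did. The direction was higher in both splits for every member. Tlr13 had 5.86 and 6.27, Cd14 5.16 and 4.25, Tlr4 1.43 and 1.25, and Tlr6 2.13 and 3.93 in the lower-numbered and higher-numbered libraries, respectively.

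Markers of leukocytes moved with the members in female sedentary pain. Of 12 macrophage markers 11 rose, and their sum was 517 to 6168 CPM against 115 to 253 in controls. Of 10 neutrophil markers 7 were tested and 4 rose, with sums of 15.9, 98.2, 38.4 and 51.6 CPM in replicates 1 to 4 against 2.31 to 11.4 in controls. Of the 4, 1 had under 10 counts in every control and passed the filter only through the pain groups, so its direction was fixed by it. Replicate 2, the library with the highest Cd14, also had the highest neutrophil sum, although the defining markers Ly6g (0 to 0.467 CPM) and Elane (0 to 0.117 CPM) were at or near 0 throughout this group. The sum of 5 erythroid markers was also highest there, at 492 CPM against 142 to 201 in the other 3 libraries and 160 to 323 in controls. The sums of 5 T cell markers were 2.08, 1.99, 31.1 and 48.5 CPM against 0.0421 to 1.25 in controls, and those of 5 B cell markers were 0.605, 1.34, 7.36 and 11.7 CPM against 0.303 to 1.38. Replicates 3 and 4, high in these lymphocyte markers, were also the 2 highest libraries of the group for all 9 receptors, though not for Cd14. Sums of 6 dendritic cell markers were 8.59 to 32.3 CPM against 6.80 to 9.14, and those of 3 plasmacytoid dendritic cell markers were 0.227 to 5.02 CPM against 0.210 to 0.734. Markers of other cells moved too. Of 4 adipocyte markers 3 fell (median log2 fold change -3.02). Their sums were 61.6, 36.4, 823 and 424 CPM in controls and 15.8, 39.1, 108 and 17.2 CPM in sedentary pain, so control replicates 3 and 4 stood apart and the others overlapped sedentary pain. Besides, 2 of 5 endothelial markers fell and 2 of 4 fibroblast markers rose. Of 7 skeletal muscle markers 1 fell. Their sum was 96385 and 88045 CPM in replicates 3 and 4 and 145000 and 174533 CPM in replicates 1 and 2, against 127863 to 192529 in controls, and mitochondrial genes took 2.75% to 8.22% of counts in this group against 8.59% to 11.02% in controls. The part of these cells and shares in the rise of the receptors was not tested.

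**Figure D2:**
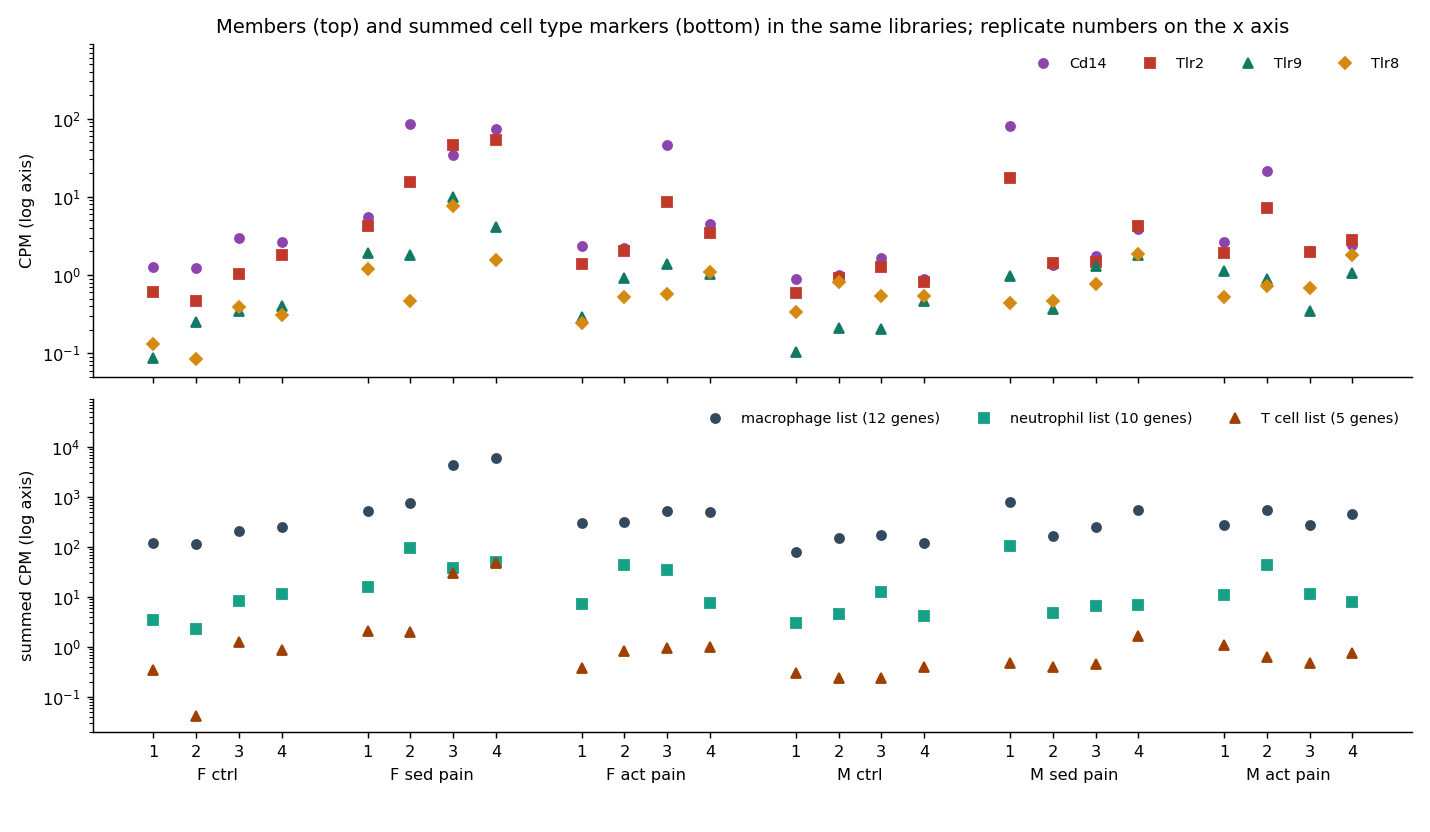
CPM of Cd14, Tlr2, Tlr9 and Tlr8 (top) and summed CPM of 12 macrophage, 10 neutrophil and 5 T cell markers (bottom), both on log axes, for each of the 24 libraries grouped by condition with replicate numbers on the x axis. The 2 libraries with the highest Cd14, replicate 2 of female sedentary pain (84.7 CPM) and replicate 1 of male sedentary pain (81.4 CPM), also have the 2 highest neutrophil sums (98.2 and 103 CPM), while Tlr8 peaks in replicate 3 of female sedentary pain.

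The 3 other mouse family members were read in the same way. Tlr5, the flagellin receptor, had 0.635 ± 0.232 CPM (SD, n = 4) in female controls, and sedentary and active pain females had 0.678 ± 0.336 and 0.664 ± 0.177 CPM. It had 1.22 CPM in each male group, and passed no comparison within a sex. Tlr11 and Tlr12, endosomal receptors for profilin of parasites, did not pass the filter on low counts in either sex and so were not tested. Tlr12 had 132 and 243 counts (4.28 and 8.59 CPM) in replicates 3 and 4 of female sedentary pain and 2 and 3 counts in replicates 1 and 2. It had 0 counts in all 4 female active pain and all 4 male control libraries, which allows up to 0.0279 and 0.0252 CPM over those groups (3 counts, counting error only). Tlr11 had 109 and 96 counts in the same 2 libraries of female sedentary pain and at most 32 elsewhere.

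Other genes of the pathway were read from lists chosen with earlier results of these data known. Their counts are to be read against all genes tested, of which 19.6% rose in female sedentary pain and 33.5% changed in either direction. Of 14 accessory proteins that chaperone, cleave or assist the receptors, 13 rose and 1 fell in female sedentary pain, with a median log2 fold change of 1.91. Among them were Ctss and Lgmn, proteases that cleave endosomal receptors, at 2.74 ± 0.31 for Lgmn and 5.59 ± 0.90 for Ctss, Cd180, a homologue that restrains TLR4 signalling in macrophages, at 4.49 ± 0.78 (edgeR adjusted p = 0.00323), and Hsp90b1, a chaperone of most family members, at 1.30 ± 0.20. The 1 that fell, Cd36, a scavenger receptor also expressed by muscle fibres and fat cells, had -1.51 (named after its value was seen). Of 20 adaptors and kinases 9 rose and 2 fell. Ticam2, 1 of the 9, had under 10 counts in every control and passed the filter only through the pain groups, so its direction was fixed by it. The 8 others that rose had at least 10 counts in every control. Myd88 rose by 2.53 ± 0.42 and Ikbke, a kinase upstream of interferon regulatory factors, by 4.99 ± 0.87, while Tirap and Tab2 fell by 0.86 and 0.56 on the log2 scale (also named after their values were seen). Of 10 transcription factors 8 rose, among them Irf5 (4.05 ± 0.64), Irf7 (3.65 ± 0.63), Nfkb2 (2.08 ± 0.28) and Relb (1.84 ± 0.25).

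Of 12 negative regulators 4 rose and 0 fell, where 19.6% of all genes rose. In either direction the share of all genes, 33.5%, was near that of the list. The 4 were Socs1 (log2 fold change 4.10 ± 0.94), Irak3 (2.62 ± 0.64), Nfkbia (1.64 ± 0.45) and Tnfaip3 (1.73 ± 0.54). Of 9 endogenous ligands released by cells or matrix 6 rose, with S100a9, a neutrophil alarmin that binds TLR4, at 5.89 ± 1.57 and the proteoglycan Vcan at 1.92 ± 0.32, and 1 fell, Hmgb1 (named after its value was seen). Of 16 target cytokines, chemokines and enzymes 12 were tested and called higher (median 6.06), but 7 of them, Tnf among them, had under 10 counts in every control and passed the filter only through the pain groups, so that their direction was fixed by it. The 4 with at least 10 counts in every control, Ccl2, Nos2, Nfkbiz and Icam1, rose. Tnf had 6.56 ± 1.42, Ccl2 6.09 ± 0.95, Cxcl10 6.03 ± 1.32 and Icam1 3.39 ± 0.66. Left-out libraries moved some of these counts. The called adaptors and kinases, 11 in all, were 6 without female sedentary pain replicate 4 or female control replicate 1 or 2 and 7 without female control replicate 4. The 4 negative regulators were 2 without female sedentary pain replicate 4 or female control replicate 1, and the 7 called ligands were 4 without female sedentary pain replicate 2 or female control replicate 1. Within replicates 1 and 2 alone 4 of the accessory genes, 0 of the adaptors and kinases, 1 of the transcription factors, 1 of the negative regulators, 0 of the ligands and 1 of the targets passed. With only the 2 groups compared 7 adaptors and kinases were called. The called ligands were 4 with no filter on low counts and 3 within replicates 3 and 4 alone.

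Sedentary pain in males gave values in the same direction that did not pass. All 10 members had a positive log2 fold change against male controls (median 1.95, against -0.01 over all genes), and 0 passed in edgeR, as did 0% of 14404 tested genes. At an unadjusted p under 0.05 there were 8 members, all higher, where 7.46% of all genes were higher. With DESeq2 5 members passed, Tlr1, Tlr2, Tlr7, Tlr9 and Tlr13, where 270 of 14404 genes did. Cd14 got no adjusted p from DESeq2 in any comparison within males, so it was not judged there. The groups did not overlap for 4 members, Tlr1, Tlr2, Tlr7 and Tlr13, where 3.95% of all genes were higher without overlap. In the male controls Tlr1 and Tlr13 had under 10 counts in every library and so passed the filter on low counts only through the pain groups, so their places in these counts support nothing. Without these 2 genes 6 of 8 members had an unadjusted p under 0.05, 3 passed in DESeq2, and 2, Tlr2 and Tlr7, did not overlap.

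In males 1 library carried much of the difference. Cd14 had 0.887, 1.01, 1.66 and 0.881 CPM in male controls and 81.4, 1.34, 1.73 and 3.82 CPM in male sedentary pain, a log2 fold change of 4.32 ± 1.40 (edgeR adjusted p = 0.353), which was 1.07 without male sedentary pain replicate 1. Tlr13 had 0.171, 0.210, 0.136 and 0.283 CPM and then 11.5, 0.703, 0.802 and 1.89 CPM (4.20 ± 1.11, adjusted p = 0.296). Tlr2 had 0.580, 0.909, 1.26 and 0.818 CPM and then 17.2, 1.44, 1.48 and 4.26 CPM (2.79 ± 0.80, adjusted p = 0.311). Without replicate 1 Tlr13 was 2.49 and Tlr2 1.44. In all 3 genes replicate 1 was the highest library, and in Tlr2 and Tlr13 the others also lay above the controls. Tlr7 was more even, with 0.409, 0.804, 0.780 and 0.786 CPM in controls and 2.18, 1.04, 0.971 and 2.55 CPM in sedentary pain (1.29 ± 0.36, adjusted p = 0.300). Tlr9 had 0.102, 0.210, 0.204 and 0.472 CPM and then 0.969, 0.368, 1.31 and 1.78 CPM, with replicate 2 inside the control range (2.15 ± 0.56, adjusted p = 0.296).

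Among the remaining members in males, Tlr1 had 0.0341 to 0.210 CPM in controls and 0.469 to 4.28 CPM in sedentary pain (3.54 ± 0.84, edgeR adjusted p = 0.296). Tlr6 was high in replicate 1 alone (3.72 CPM against 0.335 to 0.801 in the others), and its log2 fold change of 1.76 ± 0.77 was 0.40 without that library. Tlr4 had 0.74 ± 0.32, Tlr8 0.69 ± 0.53 and Tlr3 0.42 ± 0.25. Tlr8 was 0.011 without male sedentary pain replicate 4, and Tlr3 was 0.26 without male control replicate 4. Replicate 1 of male sedentary pain had the highest sums of macrophage (808 CPM) and neutrophil markers (103 CPM, against 4.92 to 6.92 in the other 3 and 3.07 to 12.6 in controls), and its T cell sum of 0.485 CPM was within the range of the others (0.402 to 1.67). Its erythroid sum was 343 CPM, against 152 to 190 in the other 3 and 127 to 231 in controls. Mitochondrial genes took 4.53% of its counts, against 10.4% to 11.3% in the other 3 and 9.43% to 11.2% in controls. The part of these cells and shares in the male values was not tested. Between the lower-numbered and the higher-numbered libraries Cd14 went from 5.43 to 1.16 and Tlr8 from -0.32 to 1.31.

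After 8 weeks of wheel running the pain model gave values against control that did not pass either. Against female controls 0 of 10 members passed in active pain (0% of 14511 genes), 5 were higher at an unadjusted p under 0.05 (3.78% of all genes), and DESeq2 called 1, Tlr13 (125 of 14511 genes), which relied on the pain groups to pass the filter on low counts. The median log2 fold change was 1.56. Tlr13 and Tlr6 did not overlap the controls, where 3.6% of all genes were higher without overlap. For Tlr6 the margin was narrow, with 0.1578 CPM per kb in the lowest active library and 0.1572 in the highest control. Tlr13 had 0.490, 1.48, 6.47 and 2.61 CPM, just above the highest control in its lowest library, a log2 fold change of 3.64 ± 0.92 (edgeR adjusted p = 0.565). Tlr2 had 1.37, 2.01, 8.55 and 3.47 CPM (1.95 ± 0.80, adjusted p = 0.649), Tlr1 0.343, 0.953, 2.31 and 1.79 CPM (2.15 ± 0.80, adjusted p = 0.616) and Tlr9 0.294, 0.918, 1.39 and 1.03 CPM (1.71 ± 0.67, adjusted p = 0.633). In each of these 3 genes 3 of 4 libraries were above all controls.

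Cd14 in active females rested on replicate 3. It had 2.35, 2.22, 46.1 and 4.53 CPM, a log2 fold change of 2.75 ± 1.06 (edgeR adjusted p = 0.628) that was 0.56 without this library. Tlr6 had 0.588, 0.671, 1.77 and 0.669 CPM (1.15 ± 0.59, adjusted p = 0.785), and without replicate 3 Tlr6 was 0.61 and Tlr2 1.20. Tlr8 (1.41 ± 0.85), Tlr7 (0.40 ± 0.69) and Tlr4 (0.36 ± 0.35) overlapped them, and Tlr3 was the 1 member with a negative value (-0.24 ± 0.44). With 1 library left out Tlr4 lay between 0.14 and 0.55, Tlr3 between -0.40 and -0.061 and Tlr7 between -0.047 (without female active pain replicate 3) and 0.74. Neutrophil marker sums were 7.40, 44.6, 35.2 and 7.54 CPM, so replicate 2 had the highest neutrophil sum with a Cd14 level like that of replicate 1. Macrophage sums were 302, 324, 533 and 507 CPM, all above the controls. The 4 adipocyte markers were lower at an edgeR unadjusted p under 0.05 (median log2 fold change -2.59), and 0 passed after adjustment. Their sums were 94.0, 36.3, 56.2 and 46.4 CPM against 61.6, 36.4, 823 and 424 in controls. The part of these cells was not tested.

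In active pain males 0 of 10 members passed against control (0% of 14404 genes), 6 were higher at an unadjusted p under 0.05 (5.26% of all genes), and DESeq2 called Tlr1 and Tlr13 (127 of 14404 genes). These 2 genes passed the filter on low counts only through the pain groups, so their calls support nothing, and without them 4 of 8 members had an unadjusted p under 0.05. Groups did not overlap for 4 of those 8, Tlr2, Tlr3, Tlr7 and Cd14, nor for Tlr1 and Tlr13, where 6.34% of all genes were higher without overlap. Cd14 had 2.63, 21.1, 2.02 and 2.45 CPM, all above the male controls, with a log2 fold change of 2.66 ± 1.34 (edgeR adjusted p = 0.634) that was 1.10 without replicate 2. Tlr13 had 1.85, 6.36, 0.411 and 1.27 CPM (3.59 ± 1.11, adjusted p = 0.478), Tlr1 1.38, 3.0, 0.513 and 0.791 CPM (3.27 ± 0.84, adjusted p = 0.465) and Tlr2 1.90, 7.24, 1.95 and 2.77 CPM (1.95 ± 0.79, adjusted p = 0.634). Replicate 2 was the highest library of all 4 genes and also had the highest neutrophil (43.5 CPM, against 7.95 to 11.4 in the others) and macrophage sums (555 CPM, against 271 to 454). It had the lowest skeletal muscle sum of its group (112455 CPM, against 157920 to 177322) and the lowest mitochondrial share (5.97%, against 8.14% to 12.6%), and its erythroid sum was 234 CPM against 193 to 199. Their part in these values was not tested. Tlr7 was again even across libraries, at 1.51, 1.88, 1.20 and 2.10 CPM (1.26 ± 0.36, adjusted p = 0.478).

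**Figure D3:**
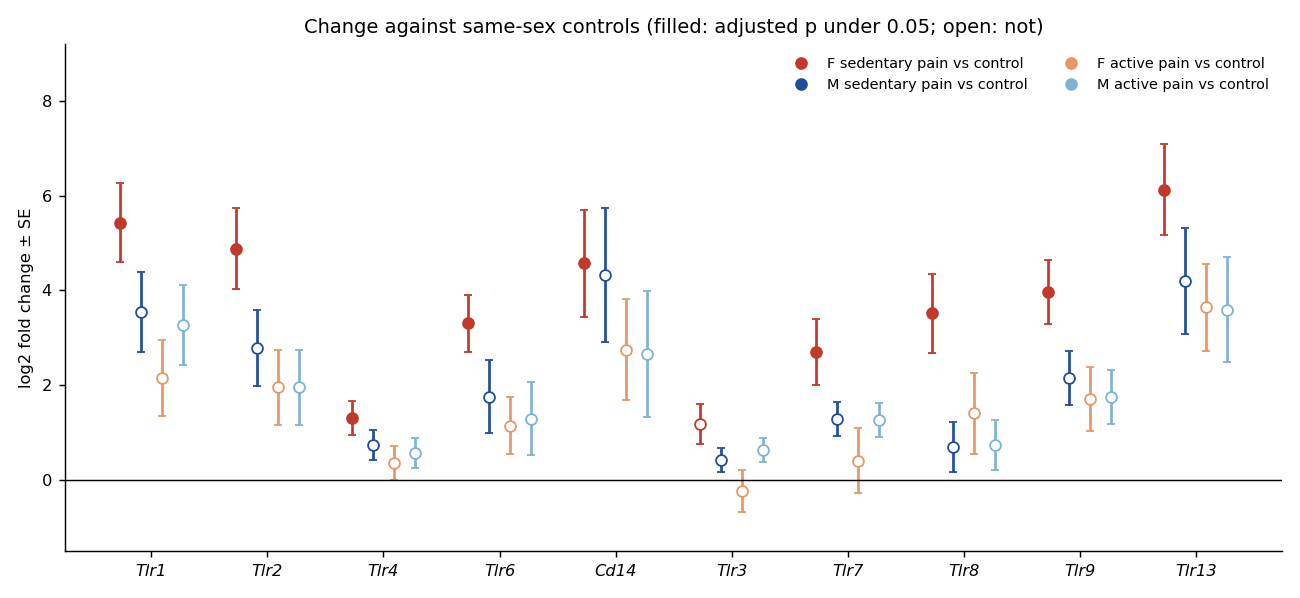
Log2 fold change with its SE of each member in sedentary pain and active pain against the controls of the same sex, with filled points for an adjusted p under 0.05 and open points otherwise. Only the female sedentary pain points are filled, for 9 of 10 members, and the active pain values use the same controls.

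Active and sedentary pain animals of the same sex were then set against each other; these comparisons share their groups with the ones above. In females all 10 members had lower values in active pain, with a median log2 fold change of -2.21 (0.01 over all genes). At an adjusted p under 0.05 5 members fell, Tlr1 (-3.28 ± 0.72, edgeR adjusted p = 0.0328), Tlr2 (-2.92 ± 0.77, 0.0355), Tlr7 (-2.29 ± 0.68, 0.0481), Tlr9 (-2.27 ± 0.60, 0.0361) and Tlr6 (-2.16 ± 0.55, 0.0335), where 9.41% of 14511 genes fell and 11.9% differed. Tlr13 (-2.48 ± 0.76, adjusted p = 0.0540), Tlr3 (-1.42 ± 0.44, 0.0541), Tlr8 (-2.10 ± 0.76, 0.0830), Tlr4 (-0.94 ± 0.35, 0.0909) and Cd14 (-1.82 ± 0.99, 0.219) did not pass. Tlr8 was -0.81 without female sedentary pain replicate 3. For Tlr1 and Tlr9 all 4 active libraries lay below all 4 sedentary ones, where 6.37% of all genes were lower without overlap.

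This count moved more than the first with the libraries used, as did the calls over all genes. It was 0 when female sedentary pain replicate 3 or 4 was left out, where 3 of 14679 and 0 of 14690 genes passed, and also without female active pain replicate 1, 2 or 4, where 0 of all genes passed. In these 5 settings Tlr1 had log2 fold changes of -3.47 to -2.68, Tlr2 -2.90 to -2.51 and Tlr9 -2.35 to -1.52. It was 9 without female sedentary pain replicate 1 and 7 without replicate 2 or without female active pain replicate 3. These higher counts are not set against the calls over all genes, so nothing about the members in particular is read from them. Within replicates 1 and 2 alone 0 members passed (0 of 14274 genes), with Tlr1 at -2.44 and Tlr2 at -2.54, and within replicates 3 and 4 alone 8 passed (2306 of 15401 genes), with Tlr1 at -3.50 and Tlr2 at -3.05. Cd14 was at -4.30 in the first pair and -1.09 in the second, and without female active pain replicate 3 it was -4.03 and passed (edgeR adjusted p = 0.0272). Of 12 macrophage markers 9 fell (median log2 fold change -2.61) and 0 of 7 tested neutrophil markers did. The 1 T cell marker (Cd4, under 10 counts in every control) and the 1 plasmacytoid dendritic cell marker that could be tested also fell (-4.40 and -3.77), as did 1 of 4 tested dendritic cell markers. The part of these cells was not tested. Among the pathway lists 10 of 14 accessory genes, 7 of 20 adaptors and kinases, 8 of 10 transcription factors, 2 of 12 negative regulators, 0 of 9 ligands and 4 of 12 tested targets fell, against 9.41% of all genes. Ticam2, 1 of the 7 adaptors and kinases, had under 10 counts in every control and passed the filter only through the pain groups, so its fall supports nothing. Each of these lists had 0 genes past the threshold without female sedentary pain replicate 3 or 4, or without female active pain replicate 1, 2 or 4. Other left-out libraries also moved the short lists. Targets called were 12 without female active pain replicate 3, 9 without female sedentary pain replicate 1 and 2 without any 1 of the female controls. Of the 12 tested targets 7 had under 10 counts in every control and passed the filter only through the pain groups, so nothing is read from these counts. Negative regulators called were 5 without female sedentary pain replicate 1 and 1 without female active pain replicate 3 or any 1 control. Ligands called were 3 without female active pain replicate 3 or female sedentary pain replicate 1 and 1 without female sedentary pain replicate 2. With no filter on low counts 2 accessory genes, 1 of the adaptors and kinases, 1 transcription factor, 0 negative regulators and 0 targets passed. Unc93b1 had -2.89 ± 0.67 (adjusted p = 0.0328), Myd88 -1.96 ± 0.41 (0.0328), Irf5 -2.76 ± 0.60 (0.0328) and Socs1 -4.00 ± 0.93 (0.0328).

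In males active against sedentary pain gave values from -1.67 to 0.20 on the log2 scale, and 0 members passed, as did 0% of 14404 genes; 0 members and 0.84% of genes had an unadjusted p under 0.05. The most negative value, Cd14 at -1.67 ± 1.23 (edgeR adjusted p = 1), became 1.59 without male sedentary pain replicate 1.

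Whether the changes differed between the sexes was tested on all 24 libraries as male minus female. For sedentary pain against control 0 of 10 members passed (0% of 15103 genes), all 10 differences were negative, and 1, Tlr8 at -2.87 ± 1.01, had an unadjusted p under 0.05 (edgeR adjusted p = 0.434), where 9.57% of genes did. This Tlr8 difference was -1.47 without female sedentary pain replicate 3. For active against sedentary pain 0 passed (0% of genes), all 10 differences were positive, and 5 had an unadjusted p under 0.05 (10.1% of genes in that direction), among them Tlr3 (1.65 ± 0.51, adjusted p = 0.228), Tlr1 (3.04 ± 1.03, adjusted p = 0.235) and Tlr7 (2.30 ± 0.79, adjusted p = 0.235). Without male sedentary pain replicate 1 the count was 5, with Tlr1 at an adjusted p of 0.0228 and Tlr3 at 0.0425, and without female sedentary pain replicate 1 it was 1. These left-out counts are not set against the calls over all genes, so nothing about the members in particular is read from them. For active pain against control the differences lay between -0.67 and 1.11 and 0 passed (0% of genes), with 0 at an unadjusted p under 0.05 (2.03% of genes). So a rise that passed in females and not in males was not itself shown to differ between them.

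Since macrophage markers rose with the receptors, each member was also expressed as a percentage of the summed CPM of the 12 macrophage markers in the same library. In female sedentary pain Tlr13 was 0.797% ± 0.551 of that sum (SD, n = 4) against 0.112% ± 0.087 in controls, Tlr1 0.500% ± 0.083 against 0.187% ± 0.055 and Tlr2 1.20% ± 0.57 against 0.528% ± 0.131. Tlr4 went the other way, at 0.404% ± 0.307 against 1.31% ± 0.29, and so did Tlr3, at 0.215% ± 0.137 against 1.02% ± 0.09. For these 5 genes the groups did not overlap, and the exact two-sided permutation test gave p = 0.0286, the smallest that 4 against 4 allows (adjusted p = 0.171 over 60 tests). Tlr13 and Tlr1 had under 10 counts in some female controls, and log2 ratios of values this low depend on the 0.05 CPM added. Their ratios are therefore uncertain. The values of Tlr6, Tlr7, Tlr8, Tlr9 and Cd14 overlapped between the groups. Over all 6 comparisons within a sex 0 of the 60 tests passed after adjustment. The ratio was also without overlap, at that same p before adjustment, for Tlr4 in active pain males (log2 difference from controls -1.07) and Tlr3 in active pain females (-1.48). In males Tlr1 had 0.354% ± 0.164 in sedentary pain against 0.101% ± 0.041 in controls and Tlr13 0.622% ± 0.533 against 0.168% ± 0.074, and the Tlr1 difference in active pain was 1.20 on the log2 scale. These 3 also had that p, but both genes had under 10 counts in every male control library, so nothing is read from them.

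**Figure D4:**
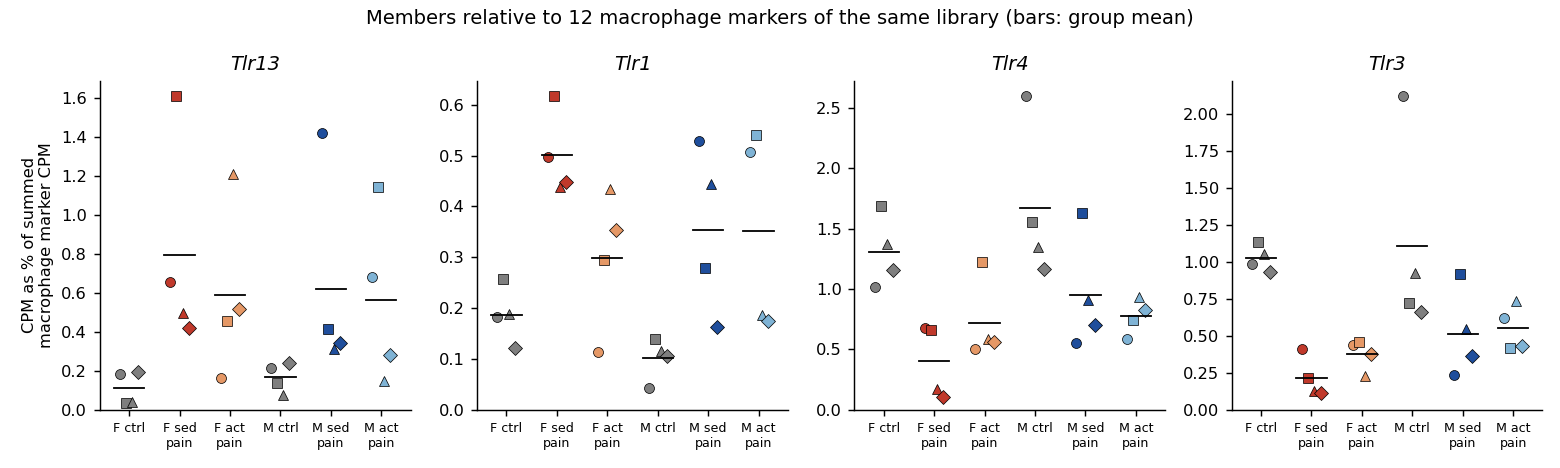
CPM of Tlr13, Tlr1, Tlr4 and Tlr3 as a percentage of the summed CPM of 12 macrophage markers in the same library, by group, with symbols for replicates 1 to 4 and a bar at the mean. Tlr13 and Tlr1 are higher and Tlr4 and Tlr3 lower in female sedentary pain than in female controls, without overlap. Tlr13 and Tlr1 had under 10 counts in some female controls.

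The genes whose pattern was most like each member were taken from the Pearson correlation of log2 CPM over the 24 libraries, a description in which all points share the group differences and the libraries that stood apart. For Cd14 they were Srgn (r = 0.99), Il1b (0.98) and Gpr35 (0.98), and after each group mean was subtracted Srgn, Gpr35 and C5ar1 (each 0.98). For Tlr2 they were Nfam1 (0.99), Nckap1l (0.99) and Slc11a1 (0.99), for Tlr1 Lcp2, Ptpn6 and Clec4a1 (each 0.98), and for Tlr13 Lilr4b (0.98), Ms4a6d (0.97) and Itgam (0.97). For Tlr9 they were Pik3ap1 (0.96), Siglec1 (0.96) and Cd180 (0.95), for Tlr6 Arhgap25 (0.97), Efhd2 (0.97) and Plekho2 (0.96), and for Tlr7 Ifi213 (0.94), Apobec1 (0.93) and Pik3cg (0.93). The first gene was Slc12a7 (0.94) for Tlr3, Cd86 (0.90) for Tlr4 and Gm1966 (0.86) for Tlr8. Between members, Cd14 and Tlr2 had r = 0.93, or 0.88 after the group means were subtracted, and Cd14 and Tlr8 had 0.38 and -0.04, where Tlr8 rests on as few as 2 counts in a library.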

How the data were processed

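RNA of 24 mouse muscle libraries was measured as raw read counts per Ensembl gene. The count values are those the authors deposited, whole numbers without normalization, from stranded paired-end libraries per the labels. Per the submitters' processing notes HISAT2 2.1.0, Salmon 0.9.1, featureCounts and DESeq2 1.24.0 were used with mm10 and GRCm38.p6; which step each made, and the use of strand in counting, are not given in the sources used here. Samples were grouped by their labels. No label says that each library is a separate animal, so p-values measure the spread between these samples.

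Genes were filtered with filterByExpr (minimum count 10), scaled by TMM and tested with edgeR 4.0.16 quasi-likelihood F tests (robust, two-sided, R 4.3.3), on the 12 libraries of a sex or, between sexes, all 24, with Benjamini-Hochberg adjustment over all genes tested and a threshold of 0.05. CPM uses TMM factors from the fit of all 24 libraries, and SE is the log2 fold change divided by the square root of the F statistic. Ratios to macrophage markers (log2 of CPM + 0.05) were compared by exact permutation tests in SciPy 1.17.1. The statistics were tested on simulated counts.

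Alternatives were other scalings (RLE, no factors), DESeq2 1.42.0, no filter, a mean of at least 50 counts, no mitochondrial genes, no robust step, only the 2 groups compared, all 24 libraries in 1 fit, a library-number covariate, the replicate block, a ratio pseudocount of 0.5, Csf1r alone in the ratio and each library left out. The members, the pathway and marker lists and the naming rule were chosen with earlier results of these data known. The rule named all members and Tlr5, Tlr11 and Tlr12, up to 4 genes of each list with the smallest p in each comparison within a sex, and the 3 most correlated genes per member.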

Additional observations from a re-analysis of the deposited data

Results flagged for a closer look

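In 11 of the 60 sets of 4 values (10 genes in 6 groups) the highest or lowest library stood apart from the other 3 by Dixon's ratio at the 95% level, which chance does in about 1 in 20 sets of independent, normally distributed values. The 60 sets share the same 24 libraries, and the rate for such CPM values was not tested. Cd14 had 4 of them. It had 46.1 CPM in female active pain replicate 3 where the next library had 4.53, 81.4 CPM in male sedentary pain replicate 1 where the next had 3.82, 21.1 CPM in male active pain replicate 2 where the next had 2.63, and 1.66 CPM in male control replicate 3 where the next had 1.01.

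The same libraries recur for other genes. Male sedentary pain replicate 1 was also the high library of Tlr13 (11.5 CPM) and Tlr6 (3.72 CPM), male active pain replicate 2 that of Tlr2 (7.24 CPM), and female active pain replicate 3 that of Tlr6 (1.77 CPM). Tlr8 stood apart in other libraries, at 7.59 CPM in female sedentary pain replicate 3 and at 1.78 CPM in male active pain replicate 4. Tlr7 in male control replicate 1 (0.409 CPM) was the 1 low value among them.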

How the results depend on the processing

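Over the results on the members and their alternatives, 1395 of 1503 values kept their direction and side of the threshold, 50 lost and 49 gained the threshold and 9 reversed. In female sedentary pain against control the 9 members past the threshold were 9 to 10 with any library left out and 2 in replicates 1 and 2 only. For female active against sedentary pain the 5 members were 0 with no filter on low counts, with only the 2 groups compared and in replicates 1 and 2 only, 8 with the library-number covariate and in replicates 3 and 4 only, 9 with DESeq2, and 0 to 9 with a library left out. DESeq2 called 5 members for male sedentary pain, 2 for male active pain and 1 for female active pain against control, where edgeR called 0; replicates 3 and 4 only gave 1 for female active pain against control. For the sex difference, replicates 3 and 4 only gave 3 members for sedentary pain against control and 4 for active against sedentary pain, where a left-out library gave 0 to 5. Unless given above, the calls over all genes in these settings are not set beside the counts. Nothing about the members in particular is read from them, and the cause was not tested. Values that turned in sign were all of members that had not passed. In replicates 1 and 2 only they were Tlr8 in male sedentary pain (-0.32), Tlr3 in female active pain against control (0.16), and Tlr7 (0.55) and Tlr13 (0.51) in male against female controls. With a library left out, Tlr7 in female active pain against control lay between -0.047 (without female active pain replicate 3) and 0.74, Cd14 in male active against sedentary pain between -3.23 and 1.59 (without male sedentary pain replicate 1), Tlr7 in male against female controls between -0.65 and 0.031 (without female control replicate 3), and Tlr13 there between -0.43 and 0.85 (without female control replicate 4), also turning without male control replicate 3 (0.029).

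The replicate block gave 8 members for female active against sedentary pain, the 5 and Tlr13 (adjusted p = 0.0170), Tlr4 (0.0296) and Tlr3 (0.0443), called Tlr3 in female sedentary pain (adjusted p = 0.0391) and kept all other counts of members within 1.5 times. The calls over all genes with the block are not set beside these counts either. Of the same-numbered pairs of groups 6 of 12 in females and 3 of 12 in males had a residual correlation over 0.1 (mean 0.103 and 0.00654), so the numbers were not treated as pairs. Depth limits Tlr1, Tlr9 and Tlr13 in controls, which had as few as 1, 2 and 1 counts in a library, and Tlr8, which had as few as 2. TMM factors were on average 0.17 (log2) higher in female sedentary pain than in female controls, so without scaling factors all fold changes there shift up by about that much, and 10 members passed.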
